A study of Rattus norvegicus with 92 samples.

Results

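Skeletal muscle of rats that breathed acrolein was compared with muscle of rats that breathed air. The comparison holds 12 of the 92 samples of the series, 6 from air and 6 from acrolein, and was chosen by tissue and exposure label alone. The muscle table lists 20508 rows, of which 19204 were above 0 in 2 or more of the 12 samples and were tested. Of the 1304 rows left out, 660 were at 0 in all samples and 644 were above 0 in a single sample.

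All animals were adult male Wistar-Kyoto rats with no genetic change. The air group breathed 0 ppm acrolein and the acrolein group up to 3.16 ppm, nose-only, for 4 h in total, and the concentration was raised in steps at the start. Necropsy followed directly and was staggered between animals, so the values describe the end of the exposure or shortly after it. The labels give the tissue only as muscle and do not say which muscle was sampled. They do not say whether each sample is a separate animal either, so p-values measure the spread between these samples.

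Acrolein is a reactive aldehyde and airway irritant found in smoke. It reacts with tissue where it is inhaled, and most of it is held in the upper airway. Skeletal muscle lies far from that contact. It is a main site of glucose uptake and protein storage and responds to glucocorticoids and adrenaline, hormones that are released under stress. Muscle is built of slow and fast fibres, which make different forms of the contractile proteins, and their mix differs between muscles and within 1 muscle.

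The rows are named by Ensembl identifier, of which 19719 are transcript and 789 are gene identifiers. The table does not pair them with symbols, so no row could be given a gene name or a function here, and the label could not be set against named muscle markers. The label was therefore not checked against markers. For description, muscle-restricted rows were picked from the tables: 152 rows had a mean of at least 500 normalized counts in muscle and under 1 part in 20 of that in every other tissue, and they made up 25.8% to 47.3% of the normalized counts of each muscle sample. They were picked for being high in these samples, so they do not test the label. A normalized count is a number of reads divided by the size factor of its sample. Levels of different rows are not compared here, because they are not per length.

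Between 15091914 reads (air 8) and 24956600 reads (acrolein 10) were recovered per sample, with a median of 22446920 in air and 20990134 in acrolein. Samples are named by the number in their label. Air 5 and air 8 stood apart from the other samples. The normalized counts summed to 15822655 in air 5 and 16058229 in air 8, against 19601967 to 24632230 in the other 10 samples, and air 5 had 18062 rows above 0, the highest number. For 13611 rows averaging 10 or more, the median correlation of log2 values was 0.913 between pairs of air samples, 0.932 between pairs of acrolein samples and 0.926 between an air and an acrolein sample. The value for pairs of unlike exposure lay between the values for the 2 kinds of like pairs. These are correlations across rows, which are not independent.

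No row passed the test between acrolein and air. limma on log2(normalized count + 1), with Benjamini-Hochberg adjustment, called 0 of 19204 rows (0%), and the smallest adjusted p was 0.916. A call needed an adjusted p no higher than 0.1 together with a change of more than 1.2-fold in either direction. The unadjusted p was under 0.05 in 574 rows (2.99%), of which 200 (1.04%) were higher and 374 (1.95%) lower in acrolein. The edgeR quasi-likelihood test on the recovered reads also called 0 rows, with 760 at an unadjusted p under 0.05 and a smallest adjusted p of 0.9997. DESeq2 on the same reads called 6 of 19657 rows (0.0305%), 2 higher and 4 lower, with 712 at an unadjusted p under 0.05. These 6 rows are described one by one further on.

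The direction of the small differences moved with single samples, and among these only leaving out air 5 reversed it. At an unadjusted p under 0.05, 210 rows were lower and 231 higher without air 5, and 300 were lower and 285 higher without acrolein 9. With any other single sample left out, 57.8% to 68.9% of these rows were lower. Without both air 5 and air 8 the split was 192 lower and 265 higher. Rescaling also moved it: 77.4% of these rows were lower when every sample was set to the same total and 55.2% under quantile normalization, against 65.2% with the authors' size factors. Setting the same total moved the median log2 difference of all rows to -0.11, from -0.01.

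How closely a difference was bounded depends on the row. The 95% intervals given here are for single rows and are not adjusted for the number of rows tested. An interval could exclude 0 without a call, as in ENSRNOT00000007879, described below (-4.07 to -1.63, limma adjusted p 0.9999). For 10439 rows averaging 50 or more, the 95% interval of the log2 difference reached a median of 0.57 to either side of the estimate, which is 1.48-fold. In 7880 of them (75.5%) the whole interval lay within 2-fold either way. For the 5594 rows with a mean under 10 the interval reached 1.12 to either side, and 10.7% of the intervals lay within 2-fold. In most of the low rows the interval therefore did not exclude a 2-fold difference. The intervals were also wide among 454 rows averaging 5000 or more, at 0.67, against 0.50 for the 3563 rows with a mean from 500 to 5000.

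**Figure D1:**
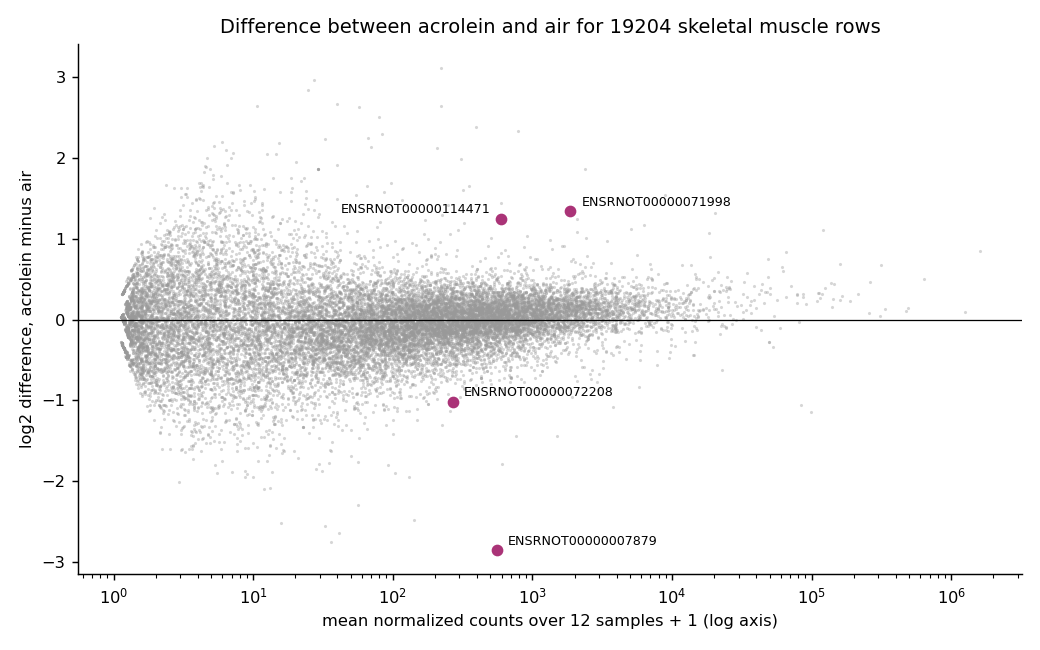
Log2 difference of each of the 19204 tested rows (vertical axis, acrolein minus air, on the log2(normalized count + 1) scale) against its mean normalized count + 1 (horizontal log axis). Each grey point is a row and the 4 labelled points are the rows named in the text. None of the points passed the limma test, and the cloud is centred near 0 with a median of -0.01.

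The median difference moved with the level of the row. It was -0.04 for rows with a mean from 50 to 500, 0.07 from 500 to 5000 and 0.18 at 5000 or above. Without air 5 and air 8 the same medians were 0.00, -0.02 and -0.04, so the rise with level was not present in the other 10 samples.

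The groups did not overlap in 15 rows (0.0781%), 5 (0.026%) with all acrolein samples above all air samples and 10 (0.0521%) with all below. The mean was at least 50 in 7 of these 15. By the rule for named rows, the 2 with the smallest p in each direction among rows with a mean of at least 50 are given with their values. None of the 4 passed the limma test, and each had an adjusted p of 0.9999 by limma.

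ENSRNOT00000071998 was the first row on the higher side. In air it ran from 518 normalized counts (air 8) to 1637 (air 6), with a median of 1207. In acrolein it ran from 1745 (acrolein 15) to 3642 (acrolein 10), with a median of 2662. Every acrolein sample lay above every air sample. The means were 1093 ± 417 in air and 2646 ± 698 in acrolein (SD, n = 6 each), and the log2 difference was 1.34 with an SE of 0.28 and a 95% interval from 0.75 to 1.92. DESeq2 gave a log2 difference of 1.28 and an adjusted p of 0.0844, which passes the threshold.

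ENSRNOT00000114471 was the second. In air it ran from 173 (air 4) to 833 (air 5), with a median of 283 normalized counts. In acrolein it ran from 471 (acrolein 14) to 1498 (acrolein 12), with a median of 691. The groups overlapped through air 5 alone, and the next air sample was at 312. The means were 359 ± 237 and 825 ± 409 (SD, n = 6 each), and the log2 difference was 1.25 with an SE of 0.35. Its DESeq2 adjusted p was 0.999.

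ENSRNOT00000007879 was the first row on the lower side. In air it ran from 605 (air 6) to 1401 (air 5), with a median of 906 normalized counts. In acrolein it ran from 29.2 (acrolein 10) to 439 (acrolein 9), with a median of 152. Every acrolein sample lay below every air sample, and the acrolein samples were spread over a wider range on the log scale than the air samples. The means were 917 ± 281 and 194 ± 173 (SD, n = 6 each). The log2 difference was -2.85 with an SE of 0.58 and a 95% interval from -4.07 to -1.63. DESeq2 gave -2.24 with an adjusted p of 0.0850.

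ENSRNOT00000072208 was the second row on this side. It ran from 230 (air 2) to 608 (air 5) in air, with a median of 349, and from 145 (acrolein 10) to 223 (acrolein 11) in acrolein, with a median of 171 normalized counts. The lowest air sample and the highest acrolein sample were close, but the groups did not overlap. The means were 364 ± 136 and 173 ± 28.1 (SD, n = 6 each), and the log2 difference was -1.01 with an SE of 0.23. DESeq2 gave -1.08 with an adjusted p of 0.0944.

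**Figure D2:**
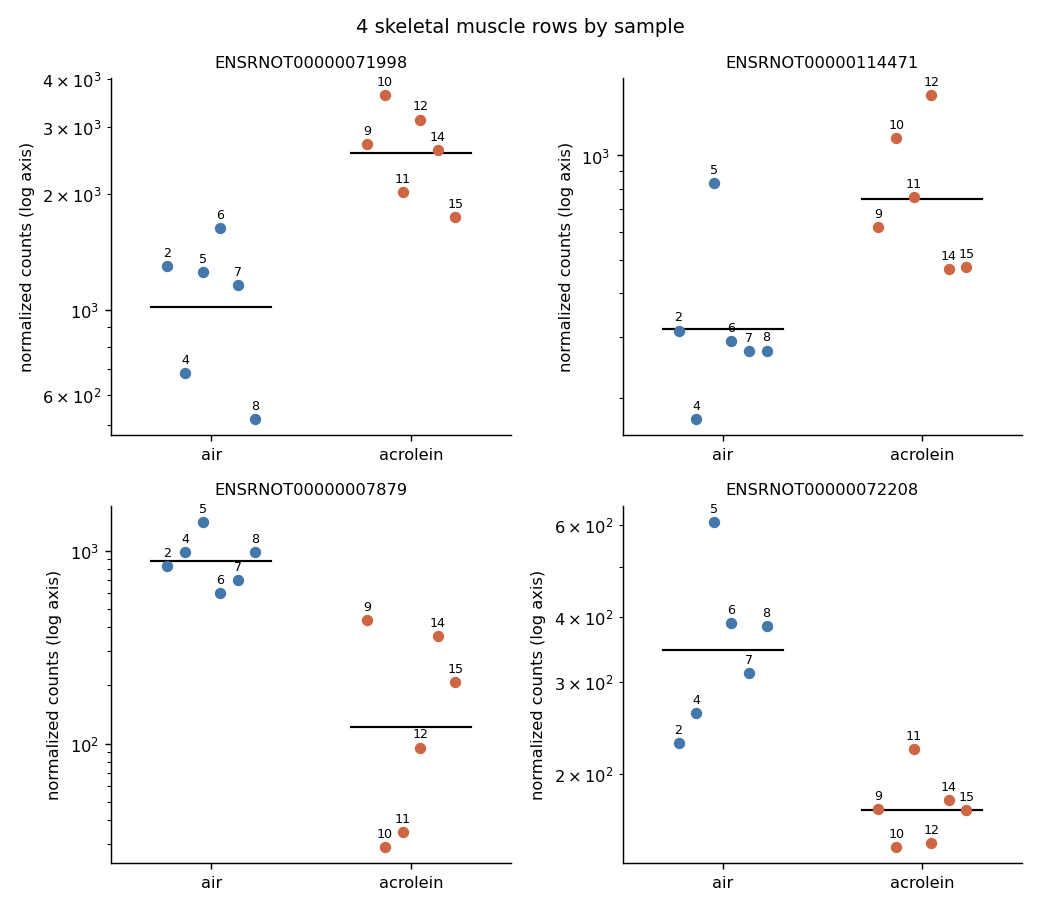
Normalized counts (log axis) of the 4 named rows in each of the 6 air and 6 acrolein samples. Points carry the sample number and the line is the mean on the log2(normalized count + 1) scale. The groups are apart in 3 rows, while in ENSRNOT00000114471 air 5, at 833, lies among the acrolein samples.

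All 4 rows were also counted in the other tissues. ENSRNOT00000071998 had a mean of 1869 normalized counts in muscle, 1085 in lung and 1059 in adipose tissue. ENSRNOT00000007879 had a mean of 556 in muscle, 1454 in nasal epithelium, 1264 in liver and 1044 in adipose tissue. The tables were normalized separately, so these levels are only set side by side.

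DESeq2 called 3 more rows, which are named here after their values were seen. ENSRNOT00000005331 ran from 54.4 (air 7) to 294 (air 4) in air and from 41.0 (acrolein 15) to 52.0 (acrolein 14) in acrolein, without overlap, and had a DESeq2 log2 difference of -1.69 with an adjusted p of 0.0844. The 6 acrolein values were close together and the air values were widely spread. ENSRNOT00000073017 was higher in acrolein, with means of 4.60 and 42.8 normalized counts, but the groups overlapped, since air 8 was at 13.8 and acrolein 14 at 4.72. ENSRNOT00000035257 was listed at 263 in air 5 and 219 in air 8 and at 0 in the other 10 samples. Its DESeq2 adjusted p of 5.66e-11 therefore came from those 2 air samples, while its unadjusted limma p was 0.0716.

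The DESeq2 count also rested on single samples. It was 1 without acrolein 10 or without acrolein 12, 2 without air 4, air 5 or air 7, and 3 without air 6, acrolein 9, acrolein 14 or acrolein 15. It was 5 without air 8 and 6 without air 2 or acrolein 11. These counts do not hold the same rows. Without air 8 all 5 calls were higher in acrolein, and of the 6 rows only ENSRNOT00000071998 and ENSRNOT00000073017 were still called. Without air 5 none of the 6 was (0 of 6). Over the 12 fits with 1 sample left out, ENSRNOT00000071998 was called in 5, ENSRNOT00000005331 and ENSRNOT00000073017 in 3 each, ENSRNOT00000007879 and ENSRNOT00000072208 in 2 each and ENSRNOT00000035257 in 10. Those 10 fits all held air 5 and air 8, the only samples in which ENSRNOT00000035257 was counted. Without either of them DESeq2 gave it no adjusted p, so the 10 calls do not show stability.

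The muscle samples differed more among themselves than those of other tissues. Over rows with a mean of at least 50, the median SD of log2 values within an exposure group was 0.46 in muscle and from 0.35 in liver to 0.44 in adipose tissue in the other 7 tables. The adipose table holds air number 8 in 2 columns, and with these averaged its value was 0.41. The difference between tissues was not tested. Rows restricted to muscle ranged more widely than other rows of high count. Between the lowest and highest of the 12 samples, the 152 muscle-restricted rows ranged over a median of 4.33-fold, against 2.63-fold for all 4017 rows averaging 500 or more.

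A set of 38 of the 152 rows followed ENSRNOT00000082871, the row with the highest mean, at a correlation above 0.8 across the 12 samples. That row ran from 74109 (air 8) to 3335866 (air 6) normalized counts, a ratio of 45.0, and from 974577 to 2332016 within acrolein. All 38 rows were lowest in air 8, which choosing rows by their correlation with this row favours. Together they made up 3.08% of the normalized counts in air 8 and 12.3% to 29.9% in the other 11 samples.

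A further set of 19 rows followed ENSRNOT00000034957, the muscle-restricted row with the widest range, which ran from 6.26 (air 5) to 35086 (air 8). All 19 rows were lowest in air 5, and 13 were highest in air 8, which choosing rows that follow this row favours. Within acrolein the row ran from 326 (acrolein 9) to 28277 (acrolein 15), so both groups held low and high samples. Another of the 19, ENSRNOT00000024186, ran from 139 in air 5 to 598960 in air 8. The remaining 95 rows followed neither row and held 13.7% to 19.8% of the counts in every sample.

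Neither set separated the exposures. The first held 18.5% ± 9.16 of the normalized counts in air and 21.3% ± 5.43 in acrolein, and the second 1.68% ± 2.57 and 1.60% ± 1.36 (SD, n = 6 each). The ranges overlapped for both sets. The second set held 6.88% in air 8 and 0.205% to 1.04% in the other air samples, so its air mean rested on air 8. On the log2 scale all 19 of its rows were above 0, with a median difference of 0.645. Their 95% intervals reached a median of 1.96 to either side. The sets were chosen after the values were seen, so no test is given for them. Of the 152 muscle-restricted rows 0 were called by limma (0% of all rows tested were). An unadjusted limma p under 0.05 was found in 3 of the 152, all higher and all among the 95 rows in neither set. Over all rows tested the share was 2.99%, with 1.04% higher and 1.95% lower. The median log2 difference of the 152 rows was 0.23, against 0.08 for all 4017 rows averaging 500 or more and -0.01 for all rows tested. Without air 5 and air 8 it was -0.07, against -0.02 for those 4017 rows and 0.01 for all rows tested. In bulk samples, fewer cells of a type and less RNA per cell cannot be told apart.

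**Figure D3:**
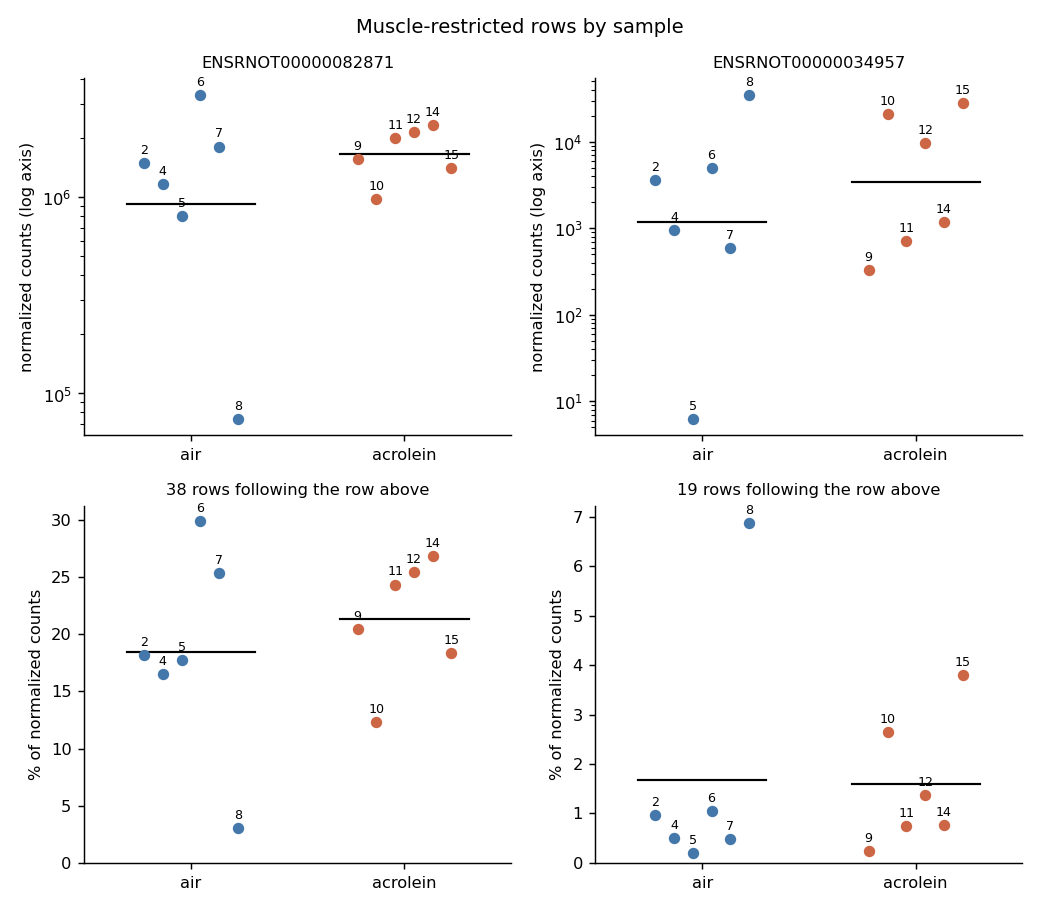
Top, normalized counts (log axis) of ENSRNOT00000082871 and ENSRNOT00000034957 by sample; bottom, the percentage of all normalized counts held by the 38 and 19 rows that followed them. Points carry the sample number and lines are means (on the log2 scale in the top panels); air 8 is lowest on the left at 3.08% and highest on the right at 6.88%, and the groups overlap in every panel.

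Rows restricted to another tissue were used to look for its RNA in the muscle samples. For each tissue the rows had a mean of at least 500 normalized counts there, under 1 part in 20 of that in the other tissues and under 1 part in 200 in the median muscle sample. The median over those rows was taken in ppm of the tissue's air level, which for the brain rows was that of hippocampus. The tables were normalized separately, so the ppm values are only approximate shares. The 10 adipose rows were at 44589 ppm in air 5 and at 173 to 8299 ppm in the other 11 samples, so air 5 stood apart. The 84 nasal rows ran from 0 to 802 ppm in air, with a median of 35.6, and from 125 to 4758 ppm in acrolein, with a median of 841, and the groups overlapped. The 150 rows shared by both brain regions ran from 453 to 2624 ppm in air and from 370 to 9334 ppm in acrolein, with medians of 1441 and 3042. The 260 liver rows stayed at or below 1724 ppm and the 18 adrenal rows at or below 458 ppm. The part of this signal in the differences between exposures was not tested.

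**Figure D4:**
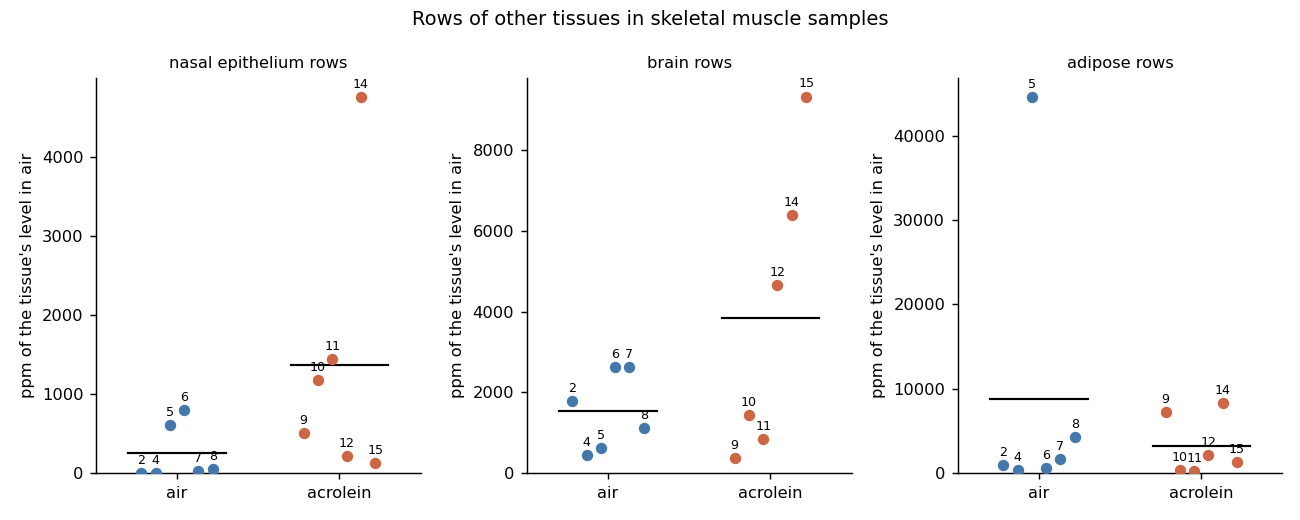
Level of rows restricted to nasal epithelium, brain and adipose tissue in each muscle sample, in ppm of the level in air samples of that tissue (hippocampus for the brain rows). Points carry the sample number and lines are group means; air 5 lies at 44589 ppm for the adipose rows, and acrolein 14 at 4758 ppm is the highest for the nasal rows.

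The letter R follows the number in the labels of air 2, air 5, air 8 and acrolein 15, and the labels do not say what it means. Among the 8 samples without it, limma called 0 rows, and 228 rows were lower and 245 higher at an unadjusted p under 0.05.

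Whether the response of muscle differed from that of nasal epithelium, the tissue of first contact, was tested as the difference of the exposure effects in 1 limma fit over both tables. The difference passed the threshold in 46 of 19096 rows (0.241%), and the acrolein effect was lower in muscle in 43 (0.225%) and higher in 3 (0.0157%). The unadjusted p of the difference was under 0.05 in 7.69% of rows. In air muscle, 13 of the 46 rows averaged 4.16 normalized counts or fewer, so their muscle differences rest on few reads. The 3 higher rows were among these 13, at 0.18, 3.21 and 1.18. When only rows averaging 10 or more in both tables were fitted, 30 passed, all lower in muscle. In all 43 lower rows of the full fit the nasal difference was above 0, with a median of 2.50 on the log2 scale. Their muscle difference ran from -2.85 to 0.40 with a median of -0.64. Choosing rows by the difference of effects favours such a pattern, and limma called none of these rows in muscle alone. The smallest p belonged to ENSRNOT00000019192. Its mean was 90.0 normalized counts in air and 73.5 in acrolein in muscle, and 281 and 19326 in nasal epithelium, and the difference of effects was -5.97 with an SE of 0.59. ENSRNOT00000047634 followed, at -0.18 in muscle and 2.92 in nasal epithelium.

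ENSRNOT00000007879 was among the 46 rows. Its log2 difference was -2.85 in muscle and 0.53 in nasal epithelium, and the difference of effects, -3.38 with an SE of 0.78, had a limma adjusted p of 0.0940. It was chosen above for its muscle difference, so this value is not independent of that choice.

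Against liver, the difference of effects passed the threshold in 3 of 18041 rows (0.0166%), all lower in muscle, and 7.33% of rows had an unadjusted p under 0.05. In ENSRNOT00000066363 the means were 76.3 and 47.2 normalized counts in air and acrolein muscle and 13.5 and 338 in liver, and the difference of effects was -4.80 with an SE of 0.67. In all 3 rows the muscle difference lay between -0.42 and -0.07. The nasal count was 20 to 99 when single samples were left out, and the liver count was 2 to 4. With the sample number as a replicate block the nasal count was 16, and the liver count was 0 with a smallest limma adjusted p of 0.546. The block used only numbers present in both tissues, 11 for nasal epithelium and 8 for liver, so these fits also held fewer samples. For nasal epithelium the only sample lost was muscle air 7, and without it the unblocked count was 30. The labels do not say whether the same number in both tissues is the same rat.

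**Figure D5:**
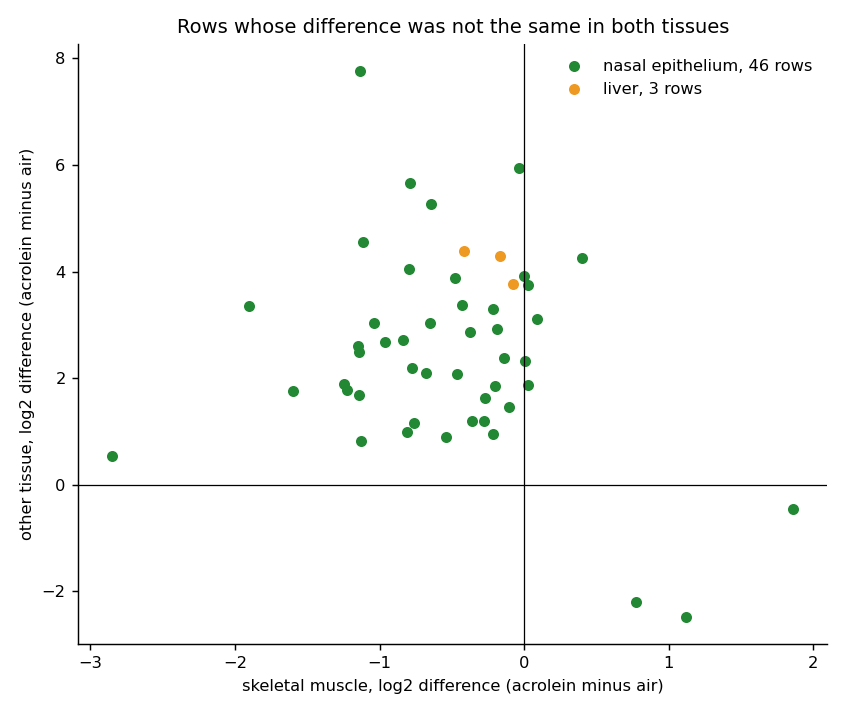
Log2 difference between acrolein and air in skeletal muscle (horizontal axis) and in the other tissue (vertical axis) for the 46 rows that differed from nasal epithelium and the 3 that differed from liver. Each point is a row; most lie high on the vertical axis with muscle values near or below 0, a pattern that choosing rows by the difference favours.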

How the data were processed

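Per the labels, RNA of 12 muscle samples was sequenced, and the submitters' processing notes name rn7, Partek and DESeq2. The study's methods describe the sequencing of liver only. Each deposited value is a signal, a read count after scaling by the sample's DESeq2 size factor, and every tissue table was scaled on its own. The smallest value above 0 in a column is 1 read, and 100% of values were whole multiples of it (tolerance 0.01), which gave the reads back. Counting error only is covered by depth.

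Under R 4.3.3, limma 3.58.1 with trended eBayes was fitted on log2(value + 1) over rows above 0 in at least 2 samples, which understates changes of low rows. edgeR 4.0.16 and DESeq2 1.42.0 were run on the recovered reads, and 851 adjusted p that DESeq2 gave as NA stayed NA. The thresholds are those the study's methods state for liver. Named rows were the 2 with the smallest p per direction with a mean of at least 50. The members, lists and rules were chosen with earlier results of these data known. Gene lists and markers were not used, since no identifier could be matched to a symbol. The functions were tested on simulated data. The alternatives were other pseudocounts, filters, scalings, thresholds, weights, covariates and tools, and single samples left out.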

Additional observations from a re-analysis of the deposited data

Results flagged for a closer look

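In 40 groups of 6 samples, the highest and lowest sample were compared with the nearest other sample by Dixon's ratio at its 95% limit. The limit was passed by 10 values, and some samples passed more than once. For normally distributed values chance passes it in about 1 of 20 groups. Most ratios were taken on counts or ppm not put on the log scale, for which that rate was not checked. ENSRNOT00000034957 was picked for its wide range, and the 38 rows for following a row that was lowest in air 8. Several of these groups share rows or samples and are not independent.

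Among the air samples, air 8 stood apart in ENSRNOT00000034957 at 35086 normalized counts (next 4931), in ENSRNOT00000024186 at 598960 (next 57966), and in the mean centred log2 level of the 38 rows that follow ENSRNOT00000082871, at -2.40 (next -0.26). Air 5 stood apart in ENSRNOT00000114471 at 833 normalized counts (next 312) and in the adipose rows at 44589 ppm (next 4220). Air 7 stood apart in the lung rows at 4516 ppm (next 480), and air 6 in the share of its row with the highest count, at 13.5% (next 8.44%).

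Among the acrolein samples, acrolein 14 stood apart in the lung rows at 4299 ppm (next 260) and in the nasal rows at 4758 ppm (next 1444), and acrolein 11 in the liver rows at 1582 ppm (next 550).

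The exposure effect differed between tissues by the test of the difference itself in 46 rows for nasal epithelium and in 3 rows for liver.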

How the results depend on the processing

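The limma count of 0 called rows was kept in 30 of 31 alternatives, edgeR among them, and the exception was DESeq2 with 6. The smallest adjusted p in those 30 was 0.128, from limma without a trend. The settings with another adjusted p limit or without a fold limit reused the main limma fit and its log2 differences. As the smallest adjusted p of that fit was 0.916, they could call no row. The count of rows at an unadjusted p under 0.05 ran from 360 to 804, against 574. The 4 named rows kept their direction in every alternative run, from 1.14 to 1.47 for ENSRNOT00000071998, 1.05 to 1.77 for ENSRNOT00000114471, -3.22 to -2.22 for ENSRNOT00000007879 and -1.13 to -0.77 for ENSRNOT00000072208, and passed the threshold only under DESeq2, in 3 of the 4. With single samples left out the DESeq2 count was 1 to 6, and it was 2 in the samples without R in the label. Alternatives chosen after the data were seen were the levels of the 2 sets of muscle-restricted rows as covariates, air 5 and air 8 both left out, and the edgeR, DESeq2 and between-tissue fits with samples left out.

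The count of rows that differed from nasal epithelium was 30 with a mean of at least 10 in both tables, and 20 to 99 with single samples left out. The low end came without nasal air 5 or nasal acrolein 10 and the high end without nasal acrolein 11. The liver count was 2 to 4 with single samples left out. With the replicate block, which takes the difference of both tissues within a sample number, the counts were 16 for nasal epithelium and 0 for liver. It held only the shared numbers, 11 for nasal epithelium and 8 for liver. The deviations of samples with the same number correlated at -0.20 to 0.31 for nasal epithelium and -0.12 to 0.27 for liver. For nasal epithelium, acrolein 9 and acrolein 14 correlated best with their own number, and for liver, air 5, air 8 and acrolein 11 did. The other shared numbers did not. Deviations in different tissues of the same rat need not correlate, so these values cannot tell whether a shared number is the same rat. The fits without the block treated the samples as unpaired, with that question unsettled. No paired analysis was possible for acrolein against air in muscle because the groups share no number. The cause of these changes was not tested. A slow fibre covariate and gene lists were not run, since they need symbols. Low rows are limited by depth.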
